A study of Homo sapiens with 6 samples.

Results

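The MCM helicase and origin licensing factors are 10 genes taken by name, a choice made with earlier results of these data known. They are MCM2, MCM3, MCM4, MCM5, MCM6 and MCM7, the helicase loaders CDC6 and CDT1, the licensing inhibitor GMNN (geminin), and MCM10. Each symbol was matched to its Ensembl identifier in a deposited count table of 58336 genes, and all 10 were found there and passed the filter on low counts. The table holds RNA-seq read counts of A2780, an established human ovarian cancer cell line, after exposure to the vehicle DMSO (3 libraries) or to 6 µM TH588, labelled TH-588, for 48 h (3 libraries). TH588 is a small molecule inhibitor of MTH1, the NUDT1 product that hydrolyses oxidized nucleotides. Libraries with the letters A, B and C came, per the series' design text, from 3 independent experiments per treatment. All were in this single line, with no other genotype and no other dose or time of TH588. The labels give no time for the DMSO libraries.

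Replication origins are licensed in G1, when the origin recognition complex, CDC6 and CDT1 load the ring-shaped MCM2-7 helicase onto DNA in an inactive form. Once S phase begins, CDC45 and the GINS complex join MCM2-7 to form the active helicase, and MCM10 is required to set it moving. Geminin binds CDT1 in S and G2 phase and prevents loading for a further round, while CDT1 is also destroyed by the CRL4-CDT2 and SCF-SKP2 ubiquitin ligases. Transcripts of most of these genes are known to rise in proliferating cells as they approach S phase under E2F transcription factors.

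E2F binding letters stand close to the transcription start of most of these genes, and 5 promoter windows are printed to show where. RefSeq windows from 250 bases before to 50 bases after an annotated start (GRCh38.p14) were at hand for 8 of the 10 genes, in 11 windows. The letters searched on both strands were TTTCCCGC, TTTGGCGC, TTTCGCGC and TTTGCCGC. At least 1 of them was present in 7 of the 8 genes (MCM2, MCM3, MCM6, MCM7, CDC6, CDT1 and GMNN) and in 7 of the 11 windows, against 3.31% of all 35116 windows and 3.99% of all 27305 genes. The windows below, written 5′ to 3′ on the strand of the gene, stand for the hexamer, both loaders and the inhibitor, with the E2F letters in capitals.
MCM3 chr6:52284693-52284992, minus strand: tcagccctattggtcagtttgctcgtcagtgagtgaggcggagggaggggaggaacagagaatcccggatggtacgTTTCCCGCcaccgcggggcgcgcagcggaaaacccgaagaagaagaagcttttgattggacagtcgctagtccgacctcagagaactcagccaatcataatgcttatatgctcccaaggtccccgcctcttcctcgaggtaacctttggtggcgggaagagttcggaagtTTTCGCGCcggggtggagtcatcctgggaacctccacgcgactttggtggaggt
MCM6 chr2:135876394-135876693, minus strand: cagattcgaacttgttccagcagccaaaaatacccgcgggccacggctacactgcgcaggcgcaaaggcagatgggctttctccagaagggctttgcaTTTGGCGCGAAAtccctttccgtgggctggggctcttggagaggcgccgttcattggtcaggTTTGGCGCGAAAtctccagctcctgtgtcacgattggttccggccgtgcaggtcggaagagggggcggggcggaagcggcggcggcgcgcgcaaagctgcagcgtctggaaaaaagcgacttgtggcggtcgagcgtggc
CDC6 chr17:40287629-40287928, plus strand: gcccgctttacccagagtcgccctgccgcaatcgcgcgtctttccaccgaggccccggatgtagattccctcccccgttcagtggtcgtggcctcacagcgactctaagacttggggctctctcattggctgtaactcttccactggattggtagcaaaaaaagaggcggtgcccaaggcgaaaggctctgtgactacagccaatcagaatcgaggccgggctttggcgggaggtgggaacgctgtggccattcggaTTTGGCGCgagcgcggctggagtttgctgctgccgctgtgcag
CDT1 chr16:88803539-88803838, plus strand: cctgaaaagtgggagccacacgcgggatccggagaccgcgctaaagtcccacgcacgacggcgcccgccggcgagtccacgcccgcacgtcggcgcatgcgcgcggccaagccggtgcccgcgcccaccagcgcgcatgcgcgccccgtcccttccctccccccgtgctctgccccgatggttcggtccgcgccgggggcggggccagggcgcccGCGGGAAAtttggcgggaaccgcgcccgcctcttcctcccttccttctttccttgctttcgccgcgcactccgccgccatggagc
GMNN chr6:24775163-24775462, plus strand: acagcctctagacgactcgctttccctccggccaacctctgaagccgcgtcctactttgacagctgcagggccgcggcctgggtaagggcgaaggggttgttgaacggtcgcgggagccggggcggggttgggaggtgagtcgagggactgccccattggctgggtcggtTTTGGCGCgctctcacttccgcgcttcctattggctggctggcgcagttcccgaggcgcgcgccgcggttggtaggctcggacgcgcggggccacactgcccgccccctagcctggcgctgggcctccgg
In MCM6 the letters TTTGGCGC on the strand of the gene and TTTCGCGC on the other strand overlapped, in a stretch at -152 to -141 and again at -90 to -79 from the start, where 0 is the first transcribed base. MCM3 held letters at -174 to -167 and across the start at -4 to 3. In CDC6 they lay just inside the transcript, at 7 to 14, as in MCM2 (2 to 13). In CDT1 they lay on the other strand at -35 to -28, and in the printed window of GMNN at -80 to -73. The other GMNN window, chr6:24774687-24774986, held none of these letters. The MCM7 window with letters held them at -187 to -180 and at -9 to -2. MCM10 had none of these letters in its window. The CCAAT box (CCAAT, both strands) was present in 6 of the 8 genes, all but MCM2 and CDT1, against 39.7% of all genes. The cell cycle homology region, searched as TTTGAA and TTCGAA on both strands, was present in 1 of the 8, MCM6, against 19.5% of all genes. A match describes the letters in these windows and does not show a factor bound there, and a window without a match says only that these exact letters are not in it.

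**Figure D1:**
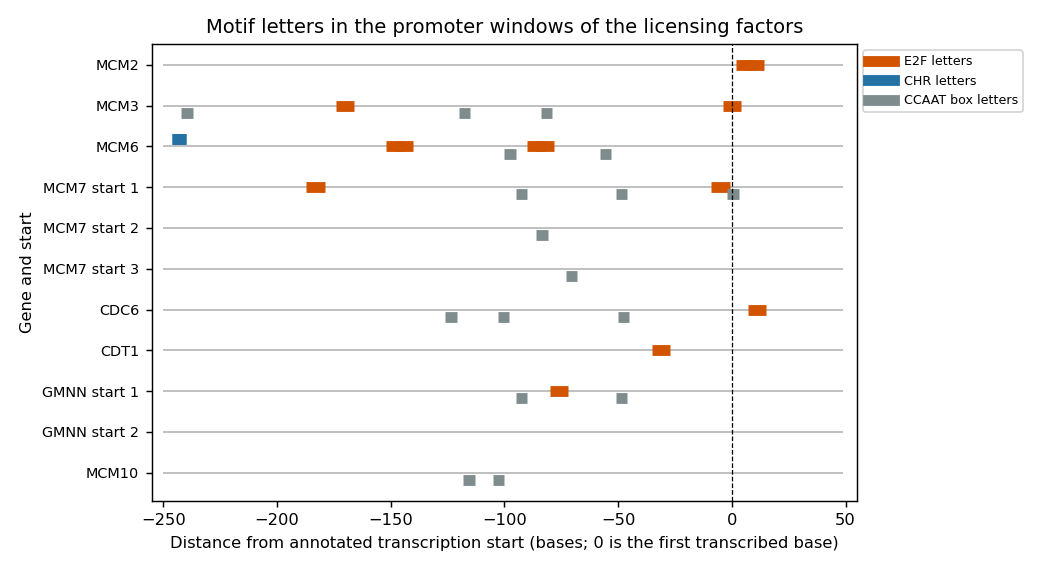
Position of E2F, cell cycle homology region (CHR) and CCAAT letters in the 11 promoter windows of 8 licensing factor genes, as distance in bases from the annotated start (dashed line). Each grey line is a window and each block a match on either strand. E2F letters are present in 7 windows, between -187 and 14.

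Library totals lay between 77634048 and 99074175 counts in all but the library TH588 A, which had 28537837, and this library also had the largest share of counts in its most abundant gene, the small nucleolar RNA SNORD3A (21.9%, against 7.68% to 12.95% in the other 5). The licensing genes were well covered even there: the lowest count of any of them in any library was 292, for GMNN in TH588 A. Replicates differed by more than counting noise in all 6 within-group pairs. As a check of the labelled tissue, 6 of 9 epithelial and ovarian markers (KRT8, KRT19, CDH1, PAX8, WT1 and MUC16) had under 20 counts in every library. The summed level of the 9 (3340 to 3750 CPM in DMSO, 3340 to 4060 CPM in TH588, where CPM are a gene's counts scaled to a common library total with TMM factors, in the usual per-million unit) was almost entirely VIM. EPCAM (0.643 CPM in DMSO and 4.74 CPM in TH588) and KRT18 (3.56 and 6.54 CPM) were low but were called higher after TH588 (adjusted p = 8.23e-07 and 0.00017, edgeR). All 4 endothelial markers and 3 of 5 leukocyte markers also had under 20 counts in every library, and the 5 fibroblast markers summed to 1610 to 1930 CPM in DMSO and 1900 to 2640 CPM in TH588, mostly COL3A1, a collagen gene, which was called higher (1733 and 2279 CPM), as was PDGFRA (17.1 and 29.3 CPM). The part of these markers in the results below was not tested.

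All 10 licensing factors fell after TH588, each by more than 2-fold. In edgeR's quasi-likelihood test across 15844 genes, with Benjamini-Hochberg adjustment, 10 of 10 were called lower at an adjusted p under 0.05, against a background of 25.3% of all genes tested (24.2% were called higher, which makes 49.6% called in either direction). A call with a fall of more than 2-fold was made in 10 of 10, against 4.76% of all genes tested. This count was 7 with library size alone as the scaling, where MCM2, MCM6 and GMNN fell by 0.99, 0.98 and 0.97 on the log2 scale, and 8 without TH588 A, where CDT1 and GMNN fell by 0.93 and 0.92. In 10 of 10 every TH588 library lay below every DMSO library, against 29% of all genes tested. Their log2 fold changes had a median of -1.25 and ranged from -1.95 to -1.08, while that of all genes tested was 0.02. RNA was measured in bulk, so fewer cells in the phase that expresses these genes and less RNA per cell cannot be told apart.

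The MCM2-7 genes encode the 6 different subunits of the ring. MCM3 (ENSG00000112118, chromosome 6, 52264009 to 52284881, minus strand, GRCh38), the most abundant of them in DMSO, was at 541, 486 and 508 CPM in the DMSO libraries A, B and C and at 151, 173 and 146 CPM in the TH588 libraries A, B and C. Its groups were far apart, and MCM3 had the largest fall of the hexamer genes, with a log2 fold change of -1.71 ± 0.09 (SE), a 3.26-fold lower level (adjusted p = 5.64e-08, edgeR). MCM4 (ENSG00000104738, chromosome 8, 47960185 to 47978160, plus strand) was at 290.5, 296 and 291 CPM in DMSO and at 91.4, 100.2 and 99.8 CPM in TH588. It had the tightest replicates of the 10 genes in either group (coefficient of variation 0.947% in DMSO and 5.11% in TH588), and fell 3.01-fold, by 1.59 ± 0.08 on the log2 scale (adjusted p = 3.14e-08, edgeR).

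MCM7 (ENSG00000166508, chromosome 7, 100092728 to 100101940, minus strand) was at 485, 437 and 472 CPM in DMSO and at 185, 202 and 172 CPM in TH588, above MCM3 in every TH588 library. It was 2.49-fold lower after TH588, with a log2 fold change of -1.32 ± 0.09 (SE, adjusted p = 2.64e-07, edgeR). Of its exon bases 8.94% are shared with AP4M1 on the opposite strand, and AP4M1 itself had 986 to 5198 counts. MCM5 (ENSG00000100297, chromosome 22, 35400063 to 35425430, plus strand) was the least abundant hexamer gene, at 86.8, 78.2 and 82.1 CPM in DMSO and at 32.0, 39.5 and 36.9 CPM in TH588. Its fall was 2.27-fold, by 1.18 ± 0.09 on the log2 scale (adjusted p = 9.12e-07, edgeR).

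MCM2 (ENSG00000073111, chromosome 3, 127598223 to 127622436, plus strand), whose product also binds histones at the fork, was at 169.5, 153 and 161 CPM in DMSO and at 65.4, 84.7 and 74.6 CPM in TH588. It was 2.15-fold lower, with a log2 fold change of -1.10 ± 0.10 (SE, adjusted p = 2.42e-06, edgeR). MCM6 (ENSG00000076003, chromosome 2, 135839626 to 135876426, minus strand) was at 159, 158 and 168 CPM in DMSO and at 81.2, 75.5 and 72.3 CPM in TH588. MCM6 fell 2.12-fold, by 1.08 ± 0.08 on the log2 scale (adjusted p = 5.06e-07, edgeR). Summed over the 6 genes, MCM2-7 stood at 1674 ± 62.9 CPM (SD, n = 3) in DMSO and at 628 ± 41.3 CPM (SD, n = 3) in TH588, 2.67-fold lower.

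**Figure D2:**
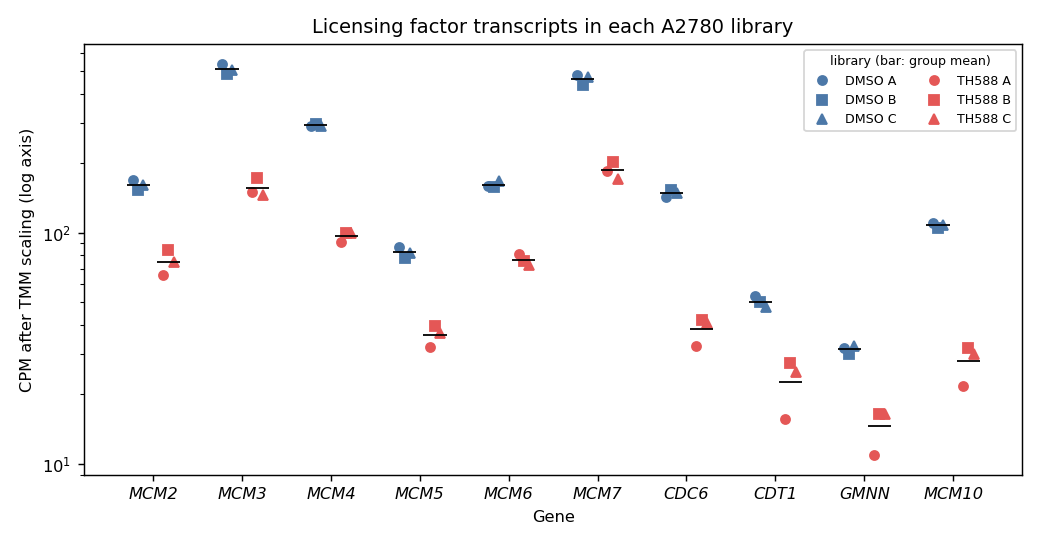
Level of the 10 licensing factor genes in each library, in CPM after TMM scaling on a log axis, with circles, squares and triangles for the libraries A, B and C and bars at the group means. Every TH588 point lies below every DMSO point of the same gene, and TH588 A is the lowest TH588 point in 7 of the 10 genes.

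Of the loaders, CDC6 (ENSG00000094804, chromosome 17, 40287633 to 40304657, plus strand), the ATPase that works with the origin recognition complex, was at 143, 153 and 149.5 CPM in DMSO and at 32.4, 41.96 and 40.7 CPM in TH588. It fell 3.85-fold, with a log2 fold change of -1.95 ± 0.10 (SE, adjusted p = 5.47e-08, edgeR), and 0.316% of all genes tested had a lower value. CDT1 (ENSG00000167513, chromosome 16, 88803213 to 88809258, plus strand), which carries MCM2-7 to the origin, was at 53.4, 50.4 and 47.5 CPM in DMSO and at 15.7, 27.4 and 24.9 CPM in TH588. Its TH588 libraries were spread most widely of the 10 genes (coefficient of variation 27.2%), with TH588 A well below the others. CDT1 was 2.20-fold lower, with a log2 fold change of -1.14 ± 0.16 (SE, adjusted p = 8.12e-05, edgeR), and -0.93 without TH588 A.

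GMNN (ENSG00000112312, chromosome 6, 24774931 to 24786099, plus strand), the inhibitor of CDT1, was at 31.9, 30.0 and 32.5 CPM in DMSO and at 10.9, 16.5 and 16.4 CPM in TH588. As in CDT1, TH588 A was the lowest library, while the order of the DMSO libraries differed from that of CDT1. GMNN fell 2.13-fold, by 1.09 ± 0.14 on the log2 scale (adjusted p = 3.85e-05, edgeR), and by 0.92 without TH588 A. MCM10 (ENSG00000065328, chromosome 10, 13161554 to 13211104, plus strand) was at 110.1, 106 and 108 CPM in DMSO and at 21.7, 31.8 and 30.1 CPM in TH588. It was 3.84-fold lower, a fall like that of CDC6 within their standard errors, with a log2 fold change of -1.94 ± 0.12 (SE, adjusted p = 1.99e-07, edgeR), and -1.79 without TH588 A. In all, TH588 A was the lowest TH588 library in 7 of the 10 genes and TH588 C in the other 3, and 10 of 10 were called lower without TH588 A.

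Levels of different genes were compared per kilobase of merged exon (CPM per kb). In DMSO the order was MCM3 (140.1 ± 7.59), MCM7 (106 ± 5.69), MCM4 (42.9 ± 0.406), MCM6 (39.2 ± 1.28), MCM2 (32.9 ± 1.70), CDC6 (29.0 ± 0.984), MCM10 (19.8 ± 0.416), CDT1 (15.1 ± 0.881), GMNN (12.7 ± 0.518) and MCM5 (11.2 ± 0.586 CPM per kb, SD, n = 3), and the mean ± SD ranges of neighbours did not overlap. In TH588 it was MCM3 (42.9 ± 3.97), MCM7 (42.5 ± 3.45), MCM6 (18.5 ± 1.09), MCM2 (15.3 ± 1.97), MCM4 (14.2 ± 0.727), CDC6 (7.49 ± 1.02), CDT1 (6.80 ± 1.85), GMNN (5.90 ± 1.29), MCM10 (5.11 ± 0.996) and MCM5 (4.93 ± 0.524 CPM per kb). There these ranges overlapped between MCM3 and MCM7, between MCM2 and MCM4, and in each neighbouring pair from CDC6 down to MCM5. The order between genes depends on the length used. Per kb of the Ensembl canonical transcript, an alternative chosen after seeing the data, MCM7 (188 in DMSO and 75.6 in TH588) stood above MCM3 (167 and 51.1). GMNN was then at 24.9 ± 1.02 and 11.6 ± 2.54, MCM5 at 23.8 ± 1.24 and 10.4 ± 1.11, and MCM10 at 23.7 ± 0.506 and 6.12 ± 1.19 (SD, n = 3). In DMSO the ranges of GMNN, MCM5 and MCM10 overlapped and lay above that of CDT1 (18.9 ± 1.10, and 8.51 ± 2.32 in TH588). In TH588 those of GMNN, MCM5 and CDT1 overlapped, and MCM10 lay below GMNN and MCM5.

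In 5 of the 6 subunit genes the share in the hexamer's reads did not overlap between the groups. Lack of overlap was common in these data. In CPM, every TH588 library lay below every DMSO library in 29% of all genes tested and above in 28.7%. No such background is given here for shares. The share of each gene in the summed MCM2-7 reads per kb was compared between the groups by an exact two-sided permutation test, in which 3 libraries against 3 can give no p below 0.1, so none of the 6 shares could pass 0.05. MCM3 held 38.4%, 37.4% and 37.2% of the sum in DMSO and 30.7%, 31.8% and 30.4% in TH588, a difference of -6.64 percentage points with no overlap (p = 0.1, exact permutation test, 0.12 adjusted over the 6 shares). The share of MCM6 went from 10.5% ± 0.461 to 13.4% ± 1.20 (SD, n = 3), that of MCM2 from 8.83% ± 0.102 to 11.02% ± 0.944, that of MCM7 from 28.4% ± 0.431 to 30.7% ± 0.878 and that of MCM5 from 3.02% ± 0.0413 to 3.56% ± 0.291. These 4 shares also showed no overlap between the groups and the same smallest possible p (0.1, exact permutation test, adjusted 0.12). The share of MCM4 went from 11.5% ± 0.585 to 10.3% ± 0.697, and its groups overlapped (p = 0.2, exact permutation test), though not per kb of the canonical transcript, where the other 5 shares kept their direction. Shares sum to 100 in each library, so a lower share of MCM3 requires higher ones elsewhere.

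Of 6 ratios between members, that of CDC6 to CDT1 in reads per kb had the largest difference. On the log2 scale it was 0.80, 0.98 and 1.03 in DMSO and 0.43, 0.00 and 0.09 in TH588, so CDC6 reads per kb were 1.92 times those of CDT1 in DMSO and 1.13 times in TH588 (difference -0.77, p = 0.1 by exact permutation test, 0.175 adjusted over 7 ratios). Per kb of the canonical transcript the mean log2 ratio of CDC6 to CDT1 was 0.78 in DMSO and 0.01 in TH588, with the same difference. Relative to the MCM2-7 sum, CDC6 was 1.45-fold lower in TH588 (log2 ratio -3.68 ± 0.11 against -4.22 ± 0.18, SD, n = 3) and MCM10 was 1.46-fold lower (-4.24 ± 0.03 against -4.78 ± 0.27), both without overlap and with the same p. The ratio of GMNN to CDT1, inhibitor to target, was -0.25 ± 0.11 on the log2 scale in DMSO and -0.19 ± 0.10 in TH588, a difference of 0.06 with overlapping groups (p = 0.5, exact permutation test). Per kb of the canonical transcript this log2 ratio was 0.40 in DMSO and 0.46 in TH588, with the same difference. Which of GMNN and CDT1 stood higher therefore depends on the length used. CDT1 and GMNN relative to the MCM2-7 sum differed by 0.24 and 0.30, with overlapping groups (p = 0.4 for both, exact permutation test). The overlap came from TH588 A: without it the differences were 0.46 and 0.47 with no overlap, at the smallest p that 2 libraries against 3 can give (0.1, exact permutation test), while without TH588 C they were 0.11 and 0.17. With 3 libraries per group these tests do not show that the ratio of GMNN to CDT1 or either of these was equal in the groups.

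**Figure D3:**
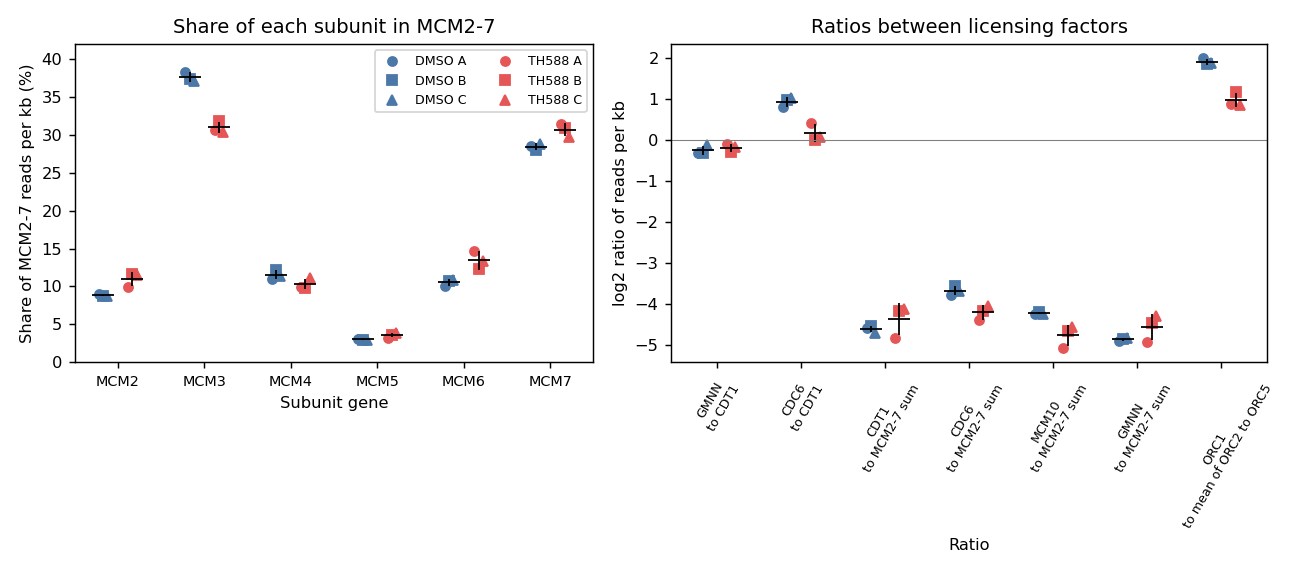
Left, share of each subunit gene in the summed MCM2-7 reads per kb (%). Right, log2 ratios of reads per kb between licensing factors. Points are libraries, with the mean and SD of each group in black. The MCM3 share is 37.6% in DMSO and 31.0% in TH588, and the CDC6 to CDT1 log2 ratio goes from 0.94 to 0.17.

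The other genes of the licensing pathway were taken from lists and counted in the same edgeR test. Of 37 such genes, 34 were tested, 28 were called lower and 1 was called higher, against 25.3% and 24.2% of all genes tested, and their log2 fold changes had a median of -0.91. In the origin recognition complex list 6 of 7 were called lower (median -0.88). ORC1, the large ATPase subunit whose level varies through the cell cycle, fell most, from 114.5 ± 2.15 to 37.5 ± 3.16 CPM (SD, n = 3), with a log2 fold change of -1.61 ± 0.08 (SE, adjusted p = 5.58e-08, edgeR). The core subunits ORC2, ORC3, ORC4 and ORC5 fell less, with log2 fold changes of -0.46, -0.90, -0.34 and -0.88, and ORC6 was at -1.06. LRWD1, which binds the complex, was at -0.10 and was not called (adjusted p = 0.475, edgeR). Reads per kb of ORC1 relative to the mean of ORC2 to ORC5 were 3.77 in DMSO and 1.97 in TH588, 1.92-fold lower with no overlap (p = 0.1, exact permutation test, adjusted 0.175). On the log2 scale this ratio was 1.91 and 0.98, and per kb of the canonical transcript it was 1.31 and 0.40.

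Of the other MCM family genes, 3 of 4 tested were called lower, against 25.3% of all genes tested. MCM8, a helicase of homologous recombination, was at -1.48 on the log2 scale, while its partner MCM9 was at -0.18 and was not called (adjusted p = 0.173, edgeR). MCMBP, which binds MCM subunits outside chromatin, was at -1.22, and HROB, which recruits MCM8 and MCM9, at -0.77. MCMDC2 did not pass the filter, with at most 10 counts in a library. All 13 origin firing factors were called lower (median -1.10), against the same 25.3%. The largest falls were those of GINS2 (-1.87, adjusted p = 6.42e-08, edgeR) and CDC45 (-1.76, adjusted p = 1.99e-08, edgeR), both partners of MCM2-7 in the active helicase, and DBF4 (-1.40), the regulatory subunit of the CDC7 kinase that phosphorylates MCM proteins. DBF4B had the smallest fall of the 13 (-0.38), a value singled out after it was seen, and was not called with library size alone as the scaling.

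Of the genes for turnover and partners of CDT1, CDC6 and geminin, 10 were tested, of which 6 were called lower (against 25.3% of all genes tested), 1 was called higher and 3 were not called, with a median of -0.22. DTL (CDT2), the CRL4 adaptor that targets CDT1, was at -1.34 (adjusted p = 7.97e-07, edgeR), SKP2, an SCF adaptor, at -1.15, and PCNA, on which CDT1 is recognized, at -0.76. The scaffold CUL4B rose, from 80.8 ± 3.25 to 109 ± 0.372 CPM (SD, n = 3), with a log2 fold change of 0.44 ± 0.07 (SE, adjusted p = 0.00038, edgeR). FZR1, an APC/C activator (-0.21), SKP1, the SCF linker (-0.19), and KAT7, a histone acetyltransferase of licensing (0.03), did not pass the test. The CRL4 subunits CUL4A (-0.22) and DDB1 (-0.21), named after their values were seen, were called over all 6 libraries (adjusted p = 0.0262 and 0.0288, edgeR). Both lost the call without any 1 of the 3 DMSO libraries (up to 0.168 and 0.119) and without TH588 C, and CUL4A also without TH588 B. MCIDAS and GMNC, relatives of geminin, did not pass the filter, with at most 16 counts in a library.

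**Figure D4:**
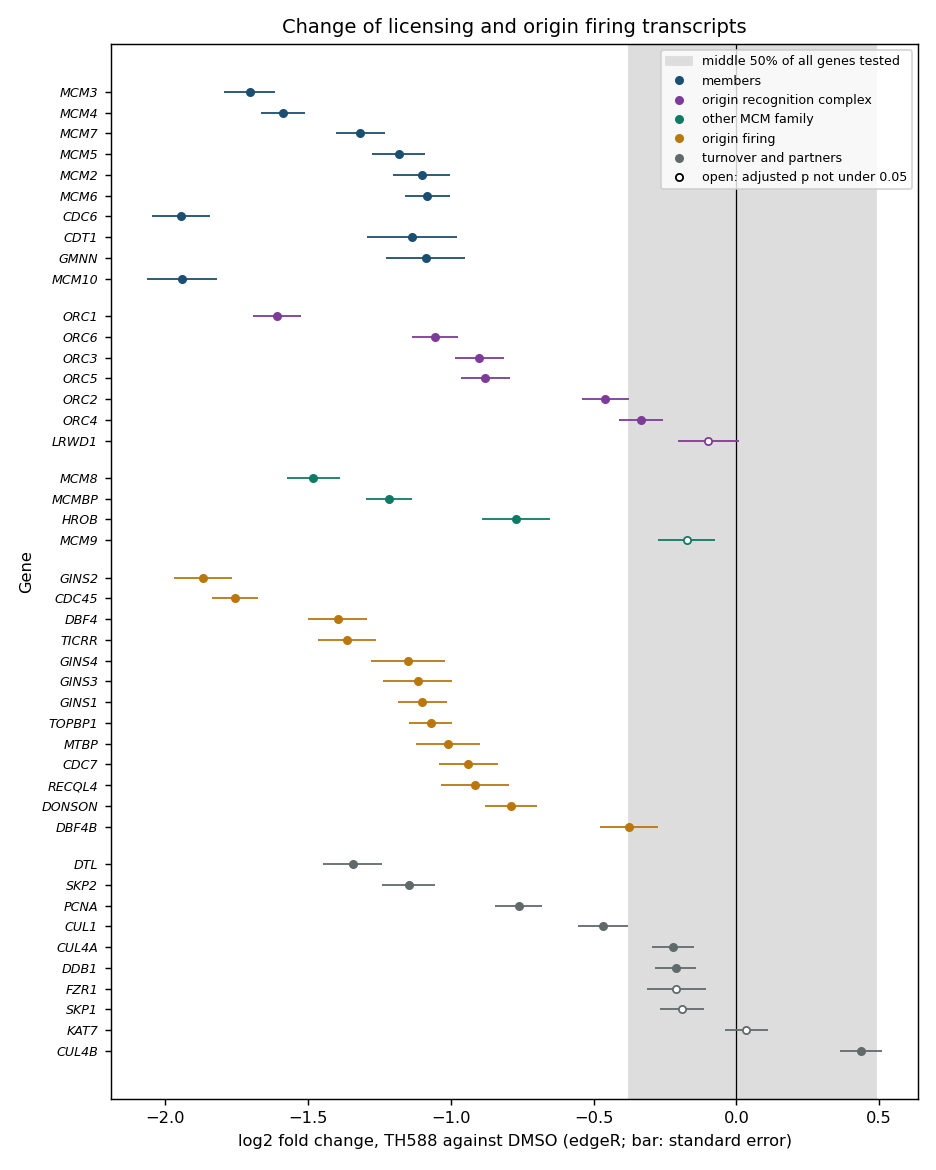
Log2 fold change of the 10 licensing factors and 34 other genes of the pathway after TH588, with standard errors from the edgeR fit, ordered within each list. The grey band holds the middle 50% of all genes tested (-0.38 to 0.49). All 10 members lie left of -1, from -1.95 (CDC6) to -1.08 (MCM6).

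Markers of proliferation moved with these genes. MKI67, expressed in cycling cells, was at 1612 ± 103 CPM in DMSO and 535 ± 83.1 CPM in TH588 (SD, n = 3), a log2 fold change of -1.59 (adjusted p = 3.70e-07, edgeR), and TOP2A, a topoisomerase of S and G2 phase, was at -1.49. CDKN1A, the cyclin-dependent kinase inhibitor p21 and a p53 target, went from 5.35 ± 0.46 to 139.8 ± 24.7 CPM, a log2 fold change of 4.71 (adjusted p = 1.88e-09, edgeR). The part of a changed share of cycling cells in the fall of the licensing factors was not tested.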

How the data were processed

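RNA from 6 A2780 libraries (3 DMSO, 3 TH588) was sequenced from TruSeq v2 polyA libraries. Per the methods and the submitters' processing notes, alignment was by TopHat on GRCh38 and counting by featureCounts 1.4.6, and the authors deposited the raw counts per gene. The handling of strand and multi-mapped reads is not given in the sources used here. The deposited table holds 58336 Ensembl genes, of which 57754 matched a symbol. Coordinates are those of the table, and in GENCODE v44 all 10 members lay over their namesake.

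Counts were tested with edgeR 4.0.16 in R 4.3.3 (TMM, default filter, quasi-likelihood test, Benjamini-Hochberg over 15844 genes, adjusted p under 0.05). Standard errors are the log2 fold change over the square root of F. Shares and ratios used exact permutation tests in scipy 1.17.1. Medians and counts of lists have no test of their own. The members, lists and tests were chosen with earlier results of these data known. The genes named were the 10 members, every gene of lists with fewer than 8 tested genes, and in longer lists the 3 largest falls, the 3 largest rises and those not called, plus MKI67, TOP2A, CDKN1A and the 5 genes most correlated with the members.

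Alternatives were limma-voom (limma 3.58.1), DESeq2 1.42.0 or its size factors alone, scaling by library size only, a filter of 10 counts in each library or none, removal of the 10 most abundant genes, the replicate letter as a block, an adjusted p under 0.01, and each library left out. Canonical transcript length was added after seeing the data. Promoters are RefSeq windows (GRCh38.p14), at hand for 8 members. The test was checked on simulated counts, in which only a small share of genes was changed, as many up as down. Such counts do not check the test where, as here, 49.6% of all genes tested are called. A bar on false calls was missed in a first simulated data set and met over 8 pooled ones, which replaced it after the miss was seen. False calls exceeded the nominal rate.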

Additional observations from a re-analysis of the deposited data

How the results depend on the processing

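All 10 members were called lower under every one of the 15 alternatives to the edgeR fit, with log2 fold changes from -2.05 (MCM10) to -0.92 (GMNN) and a largest adjusted p of 0.00191 (CDT1). Their median lay between -1.34 and -1.14. With library size alone as the scaling, the median of all genes was 0.126, and 60.4% of the called genes were higher, against 48.9% in the TMM fit. The members' own median was then -1.14. Without the filter the median of all genes was 0.14. Of the values of single pathway genes, 486 kept their direction and side of the threshold, 19 lost their call, 3 gained one and 2 changed sign. LRWD1, not called in any of them, was at 0.0136 with library size alone and at 0.0199 without TH588 A (-0.20 without TH588 B). ORC4 (-0.23) and DBF4B (-0.27) lost their call with library size alone, and CUL4A and DDB1 lost theirs in that fit, with no filter, with the block, at an adjusted p under 0.01 and without any 1 DMSO library or TH588 C, and CUL4A also without TH588 B. The cause was not tested. Genes called numbered 5831 at an adjusted p under 0.01 and 6805 to 7914 with each library left out, against 7852.

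The replicate letters were shared between the groups but were not taken as pairs in the main fit. Over all genes tested, same-lettered libraries did not deviate together (correlations -0.07, -0.08 and 0.00), which does not show that the letters were unpaired. The fit with the replicate block called 7195 genes, among them 7129 that were also called without it and 10 of 10 members. Shares and ratios cannot pass 0.05 with 3 libraries against 3. With canonical transcript length, the differences between the groups in shares and ratios kept their direction, but the levels of shares and ratios moved. The log2 ratio of GMNN to CDT1 changed sign, from -0.25 to 0.40 in DMSO and from -0.19 to 0.46 in TH588. MCM7 then held the largest share in DMSO (34.8%, against 30.8% for MCM3). Leaving out the shallowest library, TH588 A, moved no member's log2 fold change by over 1.5 times, but it moved the log2 ratio differences of CDT1 and GMNN to MCM2-7 from 0.24 and 0.30 to 0.46 and 0.47 (p from 0.4 to 0.1, exact permutation test) and the number of members lower by more than 2-fold from 10 to 8. With library size alone that number was 7, and it was 10 in the other alternatives, a count added after seeing the data.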

Other observations

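The 5 genes outside the members whose log2 CPM over the 6 libraries was most correlated with the mean of the members, among 9678 genes compared, were PRKDC, the catalytic subunit of DNA-PK (Pearson r = 0.9998), TXNDC12, an ER thioredoxin-like protein (0.9996), ACAD9, a mitochondrial complex I assembly factor (0.9995), RBM10, a splicing regulator (0.9994), and CAD, the enzyme that starts pyrimidine synthesis (0.9994). Their falls were smaller than those of the members, with log2 fold changes of -0.85, -0.54, -0.56, -0.43 and -0.94. The 6 libraries fall into the 2 treatment groups, so a high r says mainly that a gene's groups were far apart relative to their spread, and it is given as a description.

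The TH588 libraries varied more than the DMSO libraries in 10 of 10 members, with coefficients of variation of 5.11% to 27.2% against 0.947% to 5.83%. Replicate noise over all genes, as chi-square per degree of freedom, was 165, 106 and 45.4 in the TH588 pairs and 70.4, 41.8 and 23.5 in the DMSO pairs. This measure uses raw counts, so it depends on depth and weighs abundant genes most. SNORD3A alone held 21.9% of the counts in TH588 A, 11.2% in TH588 B and 12.95% in TH588 C. The share of all genes with a wider spread in TH588, or lowest in TH588 A, is not given here. CDT1 (27.2%), GMNN (21.9%) and MCM10 (19.5%) had the widest spread, and TH588 A, with the fewest counts, was the lowest TH588 library for all 3. The part of its depth in that spread was not tested. E2F letters were present in 13 of 32 other licensing genes with a promoter window, among them 5 of 9 origin firing factors and 1 of 7 origin recognition complex genes, ORC3, against 3.99% of all genes.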
